A study of Mus musculus with 16 samples.

Results

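The difference between the sort effects of 2 mouse intestinal tumour genotypes was examined: how much GFP+ cells differed from GFP- cells in tumours labelled AKVPSL, minus the same quantity in tumours labelled AKVPL. All 16 libraries of the series enter it, 4 each of AKVPSL GFP+, AKVPSL GFP-, AKVPL GFP+ and AKVPL GFP-, grouped by their sample titles. The cells were separated by flow cytometry and their RNA was sequenced. The design text speaks of Lgr5+ and Lgr5- tumour cells, so GFP is read here as a reporter of Lgr5, a receptor that marks the stem cells of the intestinal crypt. Neither the letters of the genotype names nor any gate other than GFP is given in the labels. Mouse intestinal tumour models with such names carry alleles that include Apc and Trp53, and AKVPSL has the additional letter S, which such names use for Smad4. Smad4 itself (Gene ID 17128) averaged 248 ± 26.2 CPM (counts per 1e6 after scaling, SD, n = 4) in AKVPSL GFP+ and 179.6 ± 26.1 CPM in AKVPSL GFP- cells, against 153 ± 4.24 CPM in AKVPL GFP+ and 139 ± 14.2 CPM in AKVPL GFP- cells. It was not lower in AKVPSL, and a gene-level count would miss an edit of a few bases, so this does not check the label. The labels speak of tumours derived from these genotypes and give no treatment, strain, age, driver of a transgene or number of animals. Every title names the colon, while the tissue field gives colon for 1 library (AKVPSL GFP- replicate 1) and small intestine for the other 15. Without labels that tie replicates to separate animals, the p-values refer to the spread among libraries, part of which may be technical.

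In normal intestinal epithelium, cells at the crypt base carry Lgr5 and answer WNT signals, divide, and give rise to absorptive cells and to secretory Paneth, goblet, tuft and enteroendocrine cells. SMAD4 carries the signals of TGF-beta and BMP ligands to the nucleus. A sort by an Lgr5 reporter therefore parts stem-like from other cells, and a difference of sort effects asks which genes follow that sort differently in the 2 genotypes.

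Libraries held between 10.881 and 41.602 M counts (M, 1e6). Mitochondrial genes took 1.994% to 2.803% of counts in AKVPSL GFP+, 2.368% to 6.483% in AKVPSL GFP-, 3.694% to 7.002% in AKVPL GFP+ and 2.873% to 4.851% in AKVPL GFP- libraries. GFP- cells held more RNA of other cell types in both genotypes. The summed level of 23 leukocyte genes was 86.6 to 406 CPM in AKVPSL GFP+ and 1369 to 5239 CPM in AKVPSL GFP- libraries, against 573 to 1590.0 CPM in AKVPL GFP+ and 5419.7 to 10298 CPM in AKVPL GFP- libraries. For 22 fibroblast genes the sums were 239.8 to 1268 and 1714 to 3513 CPM in AKVPSL GFP+ and GFP-, against 861 to 1523 and 5579 to 11609.8 CPM in AKVPL GFP+ and GFP-. In bulk libraries fewer cells of a type and less RNA per cell cannot be told apart. Lgr5 (Gene ID 14160, chromosome 10, 115450314 to 115587780 in GRCm38) followed the sort in both genotypes. It stood at 284, 253, 281 and 261 CPM in AKVPSL GFP+ cells, against 73.1, 89.8, 48.4 and 59.7 CPM in AKVPSL GFP- cells. In AKVPL it stood at 296, 297, 247 and 345 CPM in GFP+ cells, against 70.8, 57.6, 59.8 and 74.6 CPM in GFP- cells. The difference between these sort effects was -0.18 ± 0.21 (SE; edgeR adjusted p = 0.569 from its quasi-likelihood test, by Benjamini-Hochberg over all genes), and its sign turned with epithelial scaling (0.16), in which libraries are scaled on epithelial genes.

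The difference of sort effects passed an adjusted p of 0.05 for 3743 of 18072 genes tested (20.7%, edgeR). A sort effect is the log2 ratio of GFP+ over GFP-, and the difference is AKVPSL minus AKVPL, so a positive value means that the ratio of GFP+ over GFP- was higher in AKVPSL than in AKVPL. Values after ± are standard errors for log2 values and SDs (n = 4) for mean CPM. The difference was higher for 1267 genes (7.01%) and lower for 2476 (13.7%), and it was called and at least 2-fold for 598 (3.31%) and 721 (3.99%). The split depended on scaling. Higher calls were 33.8% of the calls with TMM scaling, 44.2% with library totals, 84.9% with epithelial scaling and 49.2% with DESeq2 size factors. They were 50% with the DESeq2 Wald test, 56.5% on the deposited RPKM values and 46.7% with no low-count filter. The median difference of all genes was -0.10 with TMM and 0.24 with epithelial scaling, so values below are read beside -0.10. Counts of list members are likewise read beside the shares of all genes called, 7.01% higher and 13.7% lower. These shares were 21.4% and 3.81% with epithelial scaling, 13.5% and 10.4% on the RPKM values, and 9.33% and 16.9% with the replicate block of pairs. They were 8.38% and 10.6% with library totals, and 4.82% and 5.5% with no low-count filter. DESeq2 gave 11.4% and 11.4% with its Wald test, and its size factors gave 9.5% and 9.8%. GFP+ and GFP- libraries with a shared number within a genotype were taken as pairs, although some libraries of AKVPSL correlated more with another number. The 4 AKVPSL pair differences did not overlap the 4 of AKVPL for 3407 of the 3743 genes, and for 5755 of all 18072 (31.8%).

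The called genes had several shapes. The most frequent was seen in 1128 genes that were lower in GFP+ cells of AKVPSL and not called in AKVPL. A further 749 genes were higher in GFP+ cells of AKVPL and not called in AKVPSL, and 620 were higher in GFP+ cells of AKVPSL and not called in AKVPL. For 310 genes GFP+ cells were lower in AKVPL and no call was made in AKVPSL. Opposite effects that each passed the test were found for 466 genes. Of these, 329 were lower in GFP+ cells of AKVPSL and higher in GFP+ cells of AKVPL, and 137 went the other way. The first of these counts was 193 with library totals, 176 with DESeq2 size factors, 42 with epithelial scaling and 200 without AKVPSL GFP- replicate 1. The second was 212 when the numbered pairs entered the fit as a replicate block and 594 with epithelial scaling. Across genes the 2 sort effects had a Pearson correlation of 0.68 over 18072 genes, which are not independent replicates.

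**Figure D1:**
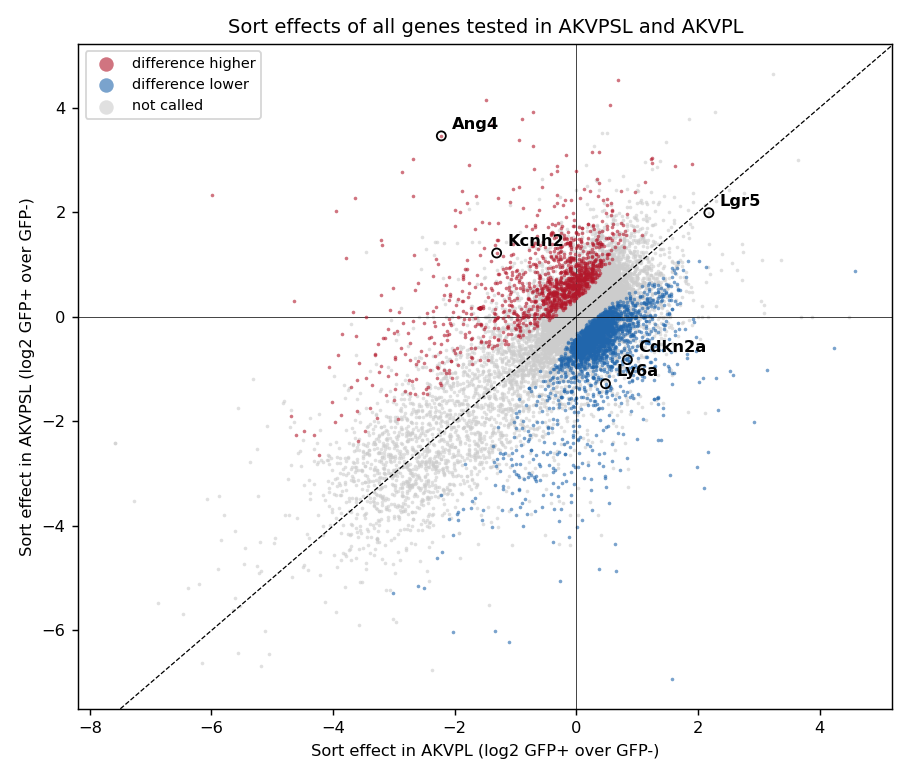
Each point is 1 of the 18072 genes tested. The vertical axis is the sort effect in AKVPSL and the horizontal axis that in AKVPL, both as log2 of GFP+ over GFP-. Red points are the 1267 genes whose difference was higher, blue points the 2476 whose difference was lower, and grey points passed no test of the difference. Ly6a and Cdkn2a lie at the lower right of the origin, Kcnh2 and Ang4 at the upper left, and Lgr5 near the diagonal, where the effects are equal.

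Ly6a and Cdkn2a followed the sort in opposite directions in the 2 genotypes. Ly6a (Gene ID 110454, chromosome 15, 74994877 to 74998031) encodes the surface protein Sca-1, which marks fetal-like and regenerating intestinal epithelium and also some stromal and blood cells. It stood at 399, 465, 407 and 467 CPM in AKVPSL GFP+ cells, against 1109, 1034, 1173 and 913 CPM in AKVPSL GFP- cells. The AKVPL values were 364, 313, 258 and 309 CPM in GFP+ and 242, 252, 206 and 188 CPM in GFP- cells. The AKVPSL GFP- libraries were the highest of all, and within each genotype the sorts did not overlap. The sort effect was -1.28 ± 0.12 in AKVPSL and 0.48 ± 0.12 in AKVPL, a difference of -1.77 ± 0.17 (edgeR adjusted p = 1.86e-06).

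Cdkn2a (Gene ID 12578, chromosome 4, 89274473 to 89294619) encodes the cell cycle inhibitor p16INK4a and, in another reading frame, p19ARF, which a count per gene does not separate. It had 316, 331, 285 and 277 CPM in AKVPSL GFP+ cells and 512, 547, 642 and 429 CPM in AKVPSL GFP- cells. In AKVPL the values were 256, 264, 241 and 271 CPM in GFP+ cells and 151, 162, 144 and 118 CPM in GFP- cells. GFP- cells thus held the higher level in AKVPSL and the lower level in AKVPL, with no overlap between the sorts in either genotype. The difference was -1.66 ± 0.17 (edgeR adjusted p = 3.37e-06), from sort effects of -0.82 ± 0.12 in AKVPSL and 0.84 ± 0.12 in AKVPL. Its neighbour Cdkn2b, the inhibitor p15INK4b, had a difference of -1.14 ± 0.17 (edgeR adjusted p = 0.000216). In the list of CDK inhibitors and D cyclins 3 of 15 tested members were lower and 1 higher, against 13.7% and 7.01% of all genes, so the list as a whole stood close to all genes. Besides these, the cyclin gene Ccnd1 was lower (-0.74 ± 0.15) and Rb1, which D cyclins and their kinases act on, was higher (0.59 ± 0.15). The lower count was 5 with the replicate block of pairs. With epithelial scaling the counts were 2 lower and 5 higher, and Ccnd1 fell short of the threshold (-0.41).

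Kcnh2 and Ang4 had higher differences. GFP+ cells of AKVPSL held more of both than GFP- cells, and GFP+ cells of AKVPL held less Kcnh2, while the Ang4 sort effect in AKVPL was not called (adjusted p = 0.121 in edgeR). Kcnh2 (Gene ID 16511, chromosome 5, 24319589 to 24351684) encodes a voltage-gated potassium channel known from the heart. It stood at 57.1, 41.9, 46.0 and 45.8 CPM in AKVPSL GFP+ cells and at 22.9, 21.9, 17.3 and 19.8 CPM in AKVPSL GFP- cells. The corresponding AKVPL values were 28.7, 23.5, 37.2 and 34.3 CPM in GFP+ and 73.9, 65.7, 75.9 and 90.6 CPM in GFP- cells. The sorts did not overlap in either genotype, and the difference was 2.53 ± 0.20 (edgeR adjusted p = 7.77e-07). Among 21 potassium channel genes tested, 5 were higher and 2 lower, against 7.01% and 13.7% of all genes. The higher members included Kcnh1, a channel of the same family (2.57 ± 0.48), Kcnma1, the large-conductance calcium-activated channel (4.29 ± 0.63), Kcna3 (2.78 ± 0.73, not called without AKVPSL GFP+ replicate 3) and Kcnq1, a basolateral channel of epithelia (0.92 ± 0.15). The lower ones were Kcnn4 (-0.83 ± 0.17) and Kcnu1 (-0.55 ± 0.18, a call that ended in 16 of the 26 other settings), and the lower count was 1 to 3 when 1 library was left out. On the RPKM values 10 were higher. Their levels differed widely: Kcnq1 averaged 138 ± 12.2 CPM in AKVPSL GFP+ and 70.5 ± 9.14 CPM in AKVPSL GFP- cells, and Kcnma1 5.16 ± 2.33 and 0.958 ± 0.43 CPM.

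Ang4 (Gene ID 219033, chromosome 14, 51763892 to 51773590) encodes an angiogenin of Paneth and goblet cells with antimicrobial activity. Its level was low: 4.91, 3.45, 9.37 and 8.43 CPM in AKVPSL GFP+ cells, against 0.0656, 0.334, 1.24 and 0.766 CPM in AKVPSL GFP- cells. In AKVPL it had 0, 0.0618, 0.273 and 0 CPM in GFP+ and 0.177, 0.919, 0.338 and 0 CPM in GFP- cells. Over a group it had 787 and 56 counts in AKVPSL GFP+ and GFP-, and 9 and 37 counts in AKVPL GFP+ and GFP-. The difference was 5.68 ± 1.28 (edgeR adjusted p = 0.00646), and it ranged from 2.79 to 7.31 over the other settings, the lowest on log2(RPKM + 1). Mouse Ang genes are close paralogs, so reads may be split between them.

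**Figure D2:**
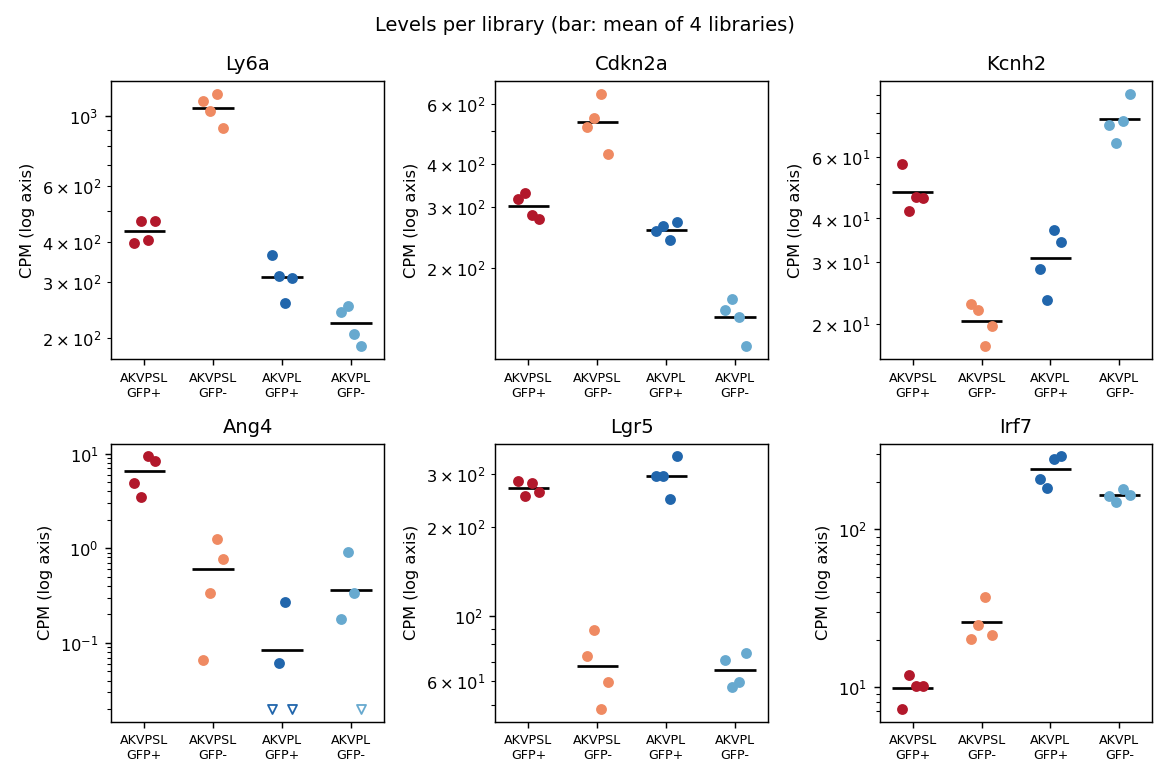
Level of Ly6a, Cdkn2a, Kcnh2, Ang4, Lgr5 and Irf7 in each library, as CPM on a log axis, with 4 libraries a group as points and the group mean as a bar. Libraries with no count of Ang4 are open triangles at the foot of its panel. For Ly6a and Cdkn2a the AKVPSL GFP- libraries lie highest, for Kcnh2 the AKVPL GFP- libraries do, and Lgr5 is higher in GFP+ cells of both genotypes.

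Interferon response genes had lower differences. Of 38 members tested, 22 had a lower difference and 0 a higher one, against 13.7% and 7.01% of all genes, and the median was -1.07. Within AKVPSL 20 members were lower and 2 higher in GFP+ cells, against 24.6% and 22.4% of all genes. Within AKVPL 14 were higher and 1 lower, against 22.6% and 16.5%. With epithelial scaling 15 were lower. The genes are induced when type I or type II interferon reaches its receptor, and they make up a program against viruses. The AKVPSL libraries all lay below the AKVPL libraries: the members summed to 356 to 485 CPM in AKVPSL GFP+ and 423 to 665 CPM in AKVPSL GFP- libraries, against 2915 to 3577 CPM in AKVPL GFP+ and 2199 to 2626 CPM in AKVPL GFP- libraries. The leukocyte sums given above were higher in GFP- cells of both genotypes. The 23 leukocyte genes had a median difference of -0.58, with no call. The part of leukocytes in the interferon differences was not tested.

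Oas2, Oas3, Oas1a and Oasl2 belong to the oligoadenylate synthetases, which sense double-stranded RNA. Oas2 stood at 2.33, 2.88, 2.10 and 3.82 CPM in AKVPSL GFP+ cells and at 4.88, 8.16, 8.33 and 4.32 CPM in AKVPSL GFP- cells. In AKVPL it reached 278, 203, 281 and 249 CPM in GFP+ and 121, 81.6, 114 and 102 CPM in GFP- cells. GFP+ cells lay below GFP- cells in AKVPSL and above them in AKVPL, a difference of -2.48 ± 0.30 (edgeR adjusted p = 6.04e-05). Oas3 had a difference of -1.94 ± 0.25, Oasl2 of -1.67 ± 0.26 and Oas1a of -1.38 ± 0.31. Irf7, the transcription factor that amplifies the interferon response, averaged 9.84 ± 1.94 CPM in AKVPSL GFP+ and 25.9 ± 7.77 CPM in AKVPSL GFP- cells (SD, n = 4), against 242 ± 53.2 CPM in AKVPL GFP+ and 165 ± 12.7 CPM in AKVPL GFP- cells. Its difference was -1.95 ± 0.27 (edgeR adjusted p = 0.000195). The interferon-induced proteins Ifit2 and Isg15 had differences of -2.46 ± 0.48 and -1.79 ± 0.39, of which that of Ifit2 fell short of the threshold on the RPKM values, and Ifit3, whose reads may be shared with its near copy Ifit3b, -2.61 ± 0.42. Ccl5, a T cell attracting chemokine, belongs to the NF-kappa-B and inflammation list and not to the interferon list. It had 0.644, 1.14, 0.967 and 0.575 CPM in AKVPSL GFP+ and 7.47, 8.16, 9.44 and 5.49 CPM in AKVPSL GFP- cells. In AKVPL the Ccl5 values were 6.30, 5.66, 10.2 and 6.43 CPM in GFP+ and 6.94, 7.87, 11.5 and 2.63 CPM in GFP- cells. The AKVPSL GFP+ libraries were the lowest of all, and the sorts overlapped in AKVPL. The difference was -3.16 ± 0.48 (edgeR adjusted p = 0.000284).

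The interferon-stimulated response element (ISRE) was looked up as GAAA, any 2 bases and GAAA again on both strands of the RefSeq promoter windows, 250 bases before to 50 after each start. Of 27 interferon response genes with a window 16 held it (59.3%), against 3.62% of the 12973 genes tested that had one. Of the 16 members with a lower difference and a window, 10 held it, close to the share of the 27. The stretches below are from 4 of the 10, with the smallest p among those with the letters before the start. They are shown because these genes share the lower difference. Each runs 5′ to 3′ on the gene's strand in GRCm38.p6, with the ISRE letters in capitals, which read TTTC, 2 bases and TTTC where the match is on the opposite strand.
Oas3 (chr5:120777685-120777774, - strand): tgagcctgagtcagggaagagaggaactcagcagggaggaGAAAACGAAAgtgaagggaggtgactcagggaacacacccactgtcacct
Ifit3 (chr19:34583367-34583456, + strand): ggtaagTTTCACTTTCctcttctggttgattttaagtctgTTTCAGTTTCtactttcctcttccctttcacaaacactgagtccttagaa
Gbp3 (chr3:142559965-142560043, + strand): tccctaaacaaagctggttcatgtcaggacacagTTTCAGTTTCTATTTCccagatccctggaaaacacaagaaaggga
Oas1a (chr5:120907526-120907579, - strand): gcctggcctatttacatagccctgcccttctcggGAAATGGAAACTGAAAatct
The last capital lies 66, 113, 30 and 5 bases before the starts on which the RefSeq windows of Oas3, Ifit3, Gbp3 and Oas1a are set. In these genes that start lies inside the gene's span in the gene table, so the distance to the outer end of the span differs. In Ifit3 the letters occur at separate places in the stretch, and in Gbp3 and Oas1a matches overlap. A match is a description of the letters and does not show that a factor binds there.

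Genes of MHC class I antigen processing had lower differences as well. Of 18 tested, 6 had a lower difference and none a higher one, with a median of -0.58, against 13.7% lower and 7.01% higher of all genes. On the RPKM values 2 were lower, near the 10.4% of all genes there. Nlrc5, the activator of class I genes, stood at 0.347, 0.268, 0.733 and 0.452 CPM in AKVPSL GFP+ and 4.13, 5.20, 3.90 and 2.94 CPM in AKVPSL GFP- cells. The Nlrc5 values in AKVPL were 18.2, 16.6, 22.7 and 20.7 CPM in GFP+ and 22.0, 20.6, 25.7 and 23.5 CPM in GFP- cells. The sorts did not overlap in AKVPSL and did in AKVPL, a difference of -2.94 ± 0.31 (edgeR adjusted p = 6.11e-06). That call ended on the RPKM values (-0.24 on log2(RPKM + 1)). Tap1, a subunit of the peptide transporter, had a difference of -2.22 ± 0.33, from a sort effect of -2.27 ± 0.25 in AKVPSL and -0.05 ± 0.22 in AKVPL. B2m, the light chain of class I molecules, had -0.87 ± 0.22, a call that ended with epithelial scaling (-0.55). Leukocytes express these genes too, and their marker sums were higher in GFP- cells of both genotypes. The 23 leukocyte genes had a median difference of -0.58, with no call. The part of leukocytes was not tested.

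Tuft cell genes had lower differences, some of them at very different levels in the 2 genotypes. Tuft cells are chemosensory secretory cells that release leukotrienes and interleukin-25. Of 22 members tested 11 had a lower difference and 1, the taste receptor gene Tas1r3 (0.99 ± 0.32), a higher one, with a median of -1.47, against 13.7% and 7.01% of all genes. The Tas1r3 call ended in 12 of the 26 other settings. The members summed to 1118 to 1253 CPM in AKVPSL GFP+ and 1129 to 1277 CPM in AKVPSL GFP- libraries. In AKVPL the sums were 2589.9 to 3692 CPM in GFP+ and 3550.3 to 4258 CPM in GFP- libraries. Dclk1, the kinase that marks tuft cells, stood at 0.223, 0.335, 0.5 and 0.904 CPM in AKVPSL GFP+ and 2.46, 1.91, 1.86 and 1.69 CPM in AKVPSL GFP- cells. In AKVPL it reached 257, 201, 291 and 271 CPM in GFP+ and 178, 165, 184 and 204 CPM in GFP- cells. Every AKVPSL library lay below every AKVPL library, and the difference of -2.59 ± 0.32 (edgeR adjusted p = 4.06e-05) compares ratios at these unequal levels. Ptgs1, cyclooxygenase 1, had 39.5 ± 5.40 CPM in AKVPSL GFP+ and 90.5 ± 27.1 CPM in AKVPSL GFP- cells, against 99.4 ± 8.52 and 98.9 ± 3.76 CPM in AKVPL GFP+ and GFP- cells (-1.20 ± 0.21). Il17rb, the receptor of interleukin-25, had sort effects of -0.22 ± 0.16 in AKVPSL and 1.26 ± 0.16 in AKVPL, a difference of -1.49 ± 0.23. Alox5ap, Hpgds and Ltc4s, which act in leukotriene and prostaglandin synthesis and which leukocytes also express, had differences of -2.03 ± 0.57, -1.80 ± 0.43 and -1.57 ± 0.33. The call of Alox5ap ended with no low-count filter and that of Hpgds on the RPKM values. The leukocyte sums were higher in GFP- cells of both genotypes, and the median difference of the 23 leukocyte genes was -0.58, with no call. The part of leukocytes was not tested.

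Fetal and regenerative epithelial genes and genes of squamous epithelium had lower differences. Of 21 fetal and regenerative genes 8 had a lower difference and 0 a higher one (median -0.54), against 13.7% and 7.01% of all genes. S100a6, a calcium-binding protein, stood at 1089, 1283, 1035 and 1263 CPM in AKVPSL GFP+ and 2888, 3206, 3692 and 2442 CPM in AKVPSL GFP- cells. Its AKVPL values were 1738, 1796, 1577 and 1563 CPM in GFP+ and 1289.5, 1458, 1399.7 and 1121 CPM in GFP- cells. The AKVPSL GFP- libraries exceeded all others, and the difference was -1.73 ± 0.18 (edgeR adjusted p = 4.33e-06). Anxa3, an annexin, had sort effects of -1.15 ± 0.10 in AKVPSL and -0.02 ± 0.10 in AKVPL (-1.13 ± 0.14), and the keratin gene Krt7 -1.14 ± 0.09 and -0.17 ± 0.09 (-0.97 ± 0.12). Msln, a surface protein of fetal epithelium, had a difference of -2.04 ± 0.33. In the squamous list 5 of 15 tested were lower and none higher, against the same shares of all genes, with a median of -1.08, and 3 with epithelial scaling; of the 20 listed, the rest were too low for the filter. Krt14, the keratin of basal squamous cells, averaged 1.03 ± 0.359 CPM in AKVPSL GFP+ and 4.60 ± 1.44 CPM in AKVPSL GFP- cells, against 148 ± 20.0 and 150.4 ± 33.3 CPM in AKVPL GFP+ and GFP- cells (-2.15 ± 0.35). Lgals7, a galectin of stratified epithelium, is not in the squamous list and was named for its small p and opposite sort effects. It had 66.9, 80.5, 66.7 and 73.4 CPM in AKVPSL GFP+ and 150.4, 208, 257 and 188 CPM in AKVPSL GFP- cells. In AKVPL the values were 27.8, 31.2, 31.3 and 30.7 CPM in GFP+ and 15.5, 19.4, 15.5 and 8.47 CPM in GFP- cells. Both sort effects passed with opposite signs, -1.48 ± 0.18 in AKVPSL and 1.02 ± 0.18 in AKVPL, and the difference was -2.50 ± 0.26 (edgeR adjusted p = 6.48e-06).

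**Figure D3:**
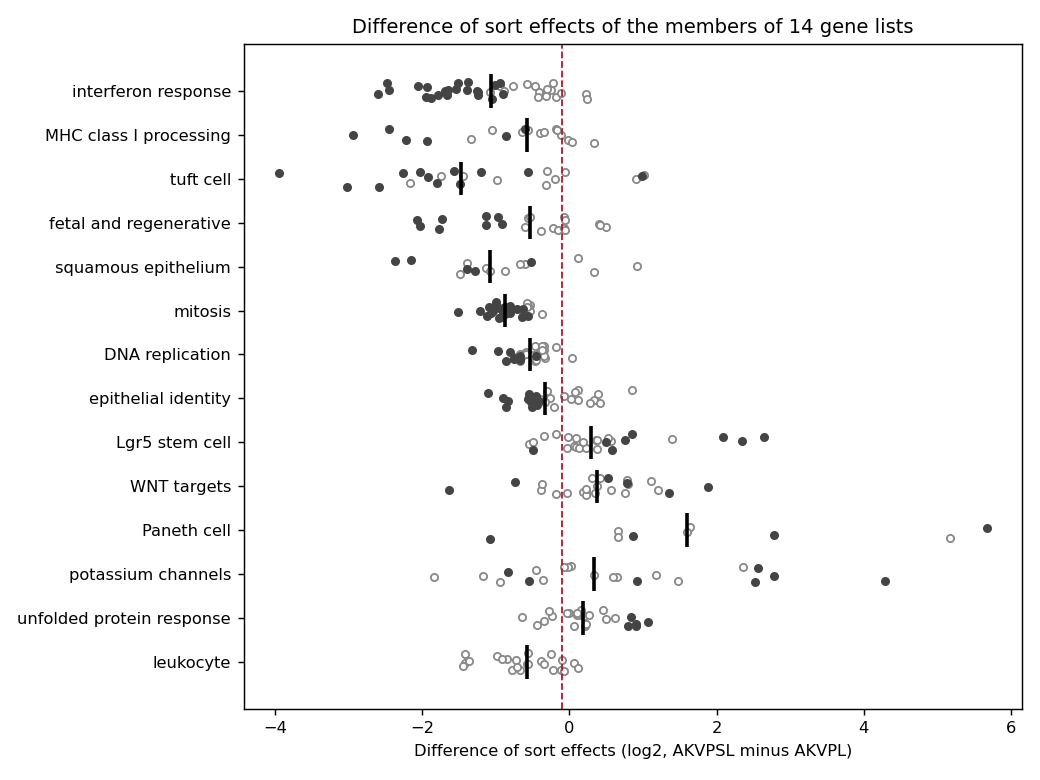
Difference of sort effects of each tested member of 14 gene lists, as log2, AKVPSL minus AKVPL. Filled points passed the test, open points did not, black bars are list medians, and the dashed line is the median of all genes (-0.10). Interferon response, tuft cell and mitosis members lie mostly below the line, and leukocyte members have no filled point.

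Mitosis genes followed the sort less in AKVPSL than in AKVPL. Of 29 members 20 had a lower difference and none a higher one, with a median of -0.88, against 13.7% and 7.01% of all genes. With epithelial scaling 8 were lower, and on the RPKM values 12. All 29 were higher in GFP+ cells of AKVPL (median 1.37) and 21 in AKVPSL (median 0.61), against 22.6% of all genes in AKVPL and 22.4% in AKVPSL. The members summed to 1756 to 2264 CPM in AKVPSL GFP+ and 1052 to 1651 CPM in AKVPSL GFP- libraries, against 1338 to 1909 CPM in AKVPL GFP+ and 560.3 to 711 CPM in AKVPL GFP- libraries. The AKVPL GFP- libraries held the lowest sums. Birc5, survivin, stood at 40.8, 47.2, 25.7 and 29.0 CPM in AKVPSL GFP+ and 53.2, 42.3, 44.8 and 37.6 CPM in AKVPSL GFP- cells. AKVPL libraries held 31.8, 25.8, 22.8 and 28.5 CPM in GFP+ and 12.5, 13.3, 11.7 and 9.99 CPM in GFP- cells, a difference of -1.51 ± 0.24 (edgeR adjusted p = 0.000439). Ccnb2, a B-type cyclin, had a sort effect of 0.00 ± 0.13 in AKVPSL and 1.10 ± 0.13 in AKVPL (-1.09 ± 0.18). Cdc20, an activator of the anaphase-promoting complex, had 0.19 ± 0.13 and 1.27 ± 0.13 (-1.07 ± 0.19), and Cdk1, the kinase of mitotic entry, 0.22 ± 0.18 and 1.44 ± 0.19 (-1.22 ± 0.26). The AKVPSL sort effects of these 4 genes were not called. The markers of non-epithelial cells were higher in AKVPL GFP- than in AKVPSL GFP- libraries for leukocytes and fibroblasts, as given above; their part was not tested.

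The cell cycle homology region (CHR), an element found in promoters of genes expressed in late cell cycle phases, was looked up as the letters TTTGAA on both strands of the same windows. Of 24 mitosis genes with a window 19 held it (79.2%), against 15.1% of all genes tested with a window. Among the 16 with a lower difference and a window, 11 held it, a smaller share than among the 24. Whether the letters go with the lower difference within the list was not tested. The number of mitosis genes with a lower difference ran from 8 to 28 over the settings. Stretches of 4 of the 11 are shown, chosen as before, with the letters in capitals.
Ccnb2 (chr9:70421676-70421761, - strand): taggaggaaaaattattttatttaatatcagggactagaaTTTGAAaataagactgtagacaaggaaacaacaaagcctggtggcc
Cdc20 (chr4:118437344-118437401, - strand): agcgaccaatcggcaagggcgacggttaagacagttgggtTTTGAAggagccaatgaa
Ube2c (chr2:164769860-164769928, + strand): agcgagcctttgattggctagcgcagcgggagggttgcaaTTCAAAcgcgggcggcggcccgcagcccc
Cdk1 (chr10:69352913-69352967, - strand): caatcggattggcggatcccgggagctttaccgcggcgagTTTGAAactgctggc
The last capital lies 162, 13, 24 and 10 bases before the window starts of Ccnb2, Cdc20, Ube2c and Cdk1. Ube2c, the ubiquitin-conjugating enzyme of the anaphase-promoting complex, had a difference of -1.12 ± 0.20.

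DNA replication and ribosome biogenesis genes leaned the same way, with counts that moved with the settings. Counts in this paragraph stand beside 13.7% lower and 7.01% higher of all genes. Of 30 replication genes 9 had a lower difference (median -0.54), among them Gins1 (-1.32 ± 0.28) of the replicative helicase. The count was 19 with the replicate block of pairs, 1 with epithelial scaling, and 5 with library totals. Of all genes 16.9%, 3.81% and 10.6% were lower in these settings, and 10.2% to 15.8% when 1 library was left out. The replication count was 2 without AKVPSL GFP- replicate 1, 14 without AKVPSL GFP- replicate 3 and 15 without AKVPSL GFP+ replicate 2. It was 3 without any 1 of AKVPL GFP+ replicate 1, AKVPL GFP- replicate 4 and AKVPSL GFP+ replicates 3 and 4. It was 5 without AKVPSL GFP- replicate 2. Of 28 ribosome biogenesis genes 11 were lower and none higher (median -0.33), 4 with epithelial scaling. Nhp2, a protein of box H/ACA particles, averaged 129.5 ± 16.3 CPM in AKVPSL GFP+ and 204 ± 26.3 CPM in AKVPSL GFP- cells, against 90.3 ± 3.09 and 65.9 ± 9.50 CPM in AKVPL GFP+ and GFP- cells (-1.10 ± 0.17). Npm1, nucleophosmin, had sort effects of -0.44 ± 0.12 in AKVPSL and 0.44 ± 0.12 in AKVPL (-0.88 ± 0.17). Of 24 glutathione and NRF2 genes 8 were lower and none higher; with epithelial scaling 3 were lower and 4 higher. Gpx2, the glutathione peroxidase of the gut, stood at 294, 328, 223 and 270.4 CPM in AKVPSL GFP+ and 391, 285, 397 and 296 CPM in AKVPSL GFP- cells. The AKVPL values were 108, 104, 82.2 and 99.9 CPM in GFP+ and 47.2, 62.6, 60.4 and 45.3 CPM in GFP- cells, and the difference was -1.17 ± 0.20 (edgeR adjusted p = 0.000902).

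**Figure D4:**
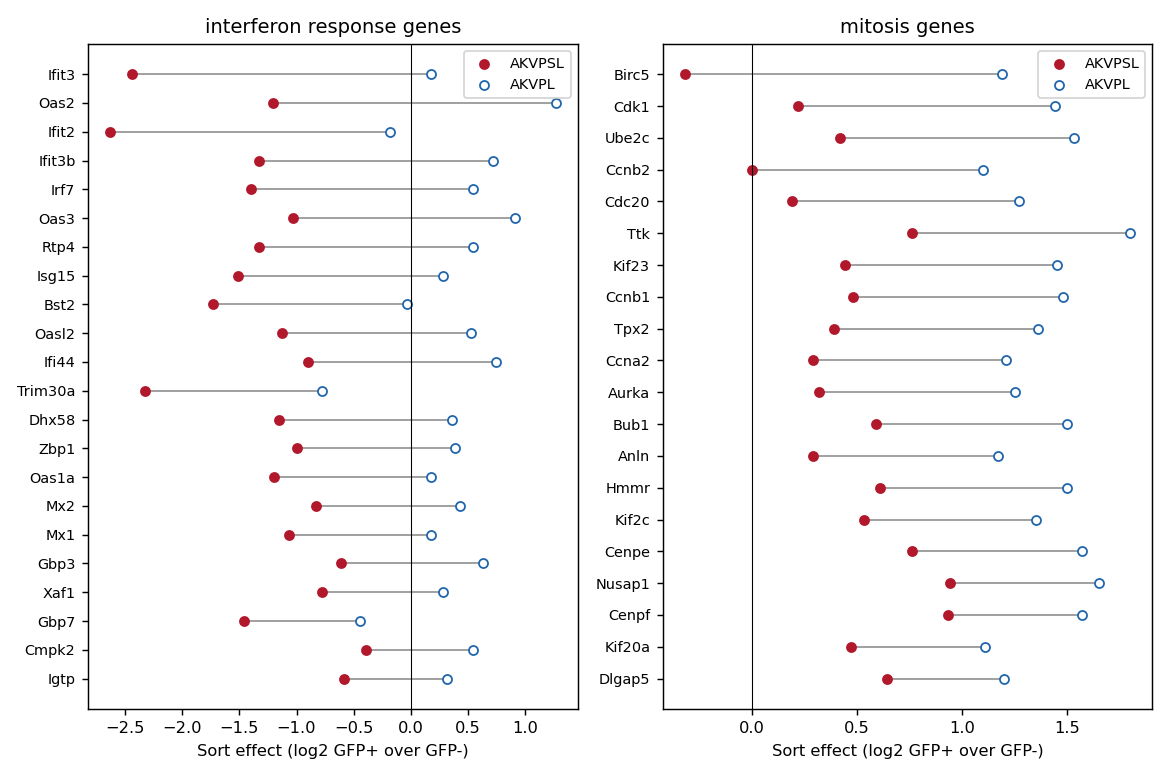
Sort effects (log2 of GFP+ over GFP-) of the 22 interferon response and 20 mitosis genes with a lower difference. Filled circles are AKVPSL, open circles AKVPL, and a line joins the circles of a gene. Interferon genes lie mostly below 0 in AKVPSL and above 0 in AKVPL, and mitosis genes lie above 0 in AKVPL and nearer 0 in AKVPSL.

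Epithelial surface and junction genes also had lower differences. Of 27 epithelial identity genes 12 were lower and none higher (median -0.33), against 13.7% and 7.01% of all genes. With no low-count filter 4 were lower, against 5.5% of all genes there. Epithelial scaling rests on this list, and there 2 were lower and 5 higher. Krt19, a keratin of simple epithelium, averaged 548 ± 35.7 CPM in AKVPSL GFP+ and 1083 ± 84.7 CPM in AKVPSL GFP- cells, against 865 ± 32.5 and 792 ± 48.1 CPM in AKVPL GFP+ and GFP- cells (-1.11 ± 0.12). Tspan8, a tetraspanin of gastrointestinal epithelium, is not in the list and was named for its small p. It had sort effects of -0.30 ± 0.11 in AKVPSL and 1.15 ± 0.11 in AKVPL (-1.46 ± 0.16, edgeR adjusted p = 7.79e-06). Cdh17, the cadherin of intestinal epithelium, had 0.25 ± 0.14 and 1.15 ± 0.15 (-0.90 ± 0.20).

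Some crypt base and WNT genes had higher differences. In the Lgr5 stem cell list 7 of 26 tested members had a higher difference and 1, Sox9 (-0.49 ± 0.16), a lower one (median 0.29), against 7.01% and 13.7% of all genes. The Sox9 call ended in 13 of the 26 other settings. The lower count was 4 with the replicate block of pairs and 0 to 3 when 1 library was left out, and the higher count 16 with epithelial scaling. Clca3b, a secreted protein of the chloride channel accessory family, stood at 17.9, 19.9, 21.8 and 13.7 CPM in AKVPSL GFP+ and 4.26, 5.25, 3.28 and 5.08 CPM in AKVPSL GFP- cells. In AKVPL it had 2.82, 3.25, 3.13 and 2.55 CPM in GFP+ and 5.77, 5.66, 3.63 and 2.71 CPM in GFP- cells. The difference was 2.65 ± 0.32 (edgeR adjusted p = 2.83e-05). Slc14a1, a urea transporter, averaged 27.4 ± 5.06 CPM in AKVPSL GFP+ and 10.3 ± 1.47 CPM in AKVPSL GFP- cells, against 33.1 ± 3.55 and 53.1 ± 12.1 CPM in AKVPL GFP+ and GFP- cells (2.09 ± 0.23). Rgmb, a BMP co-receptor, and Smoc2, a matricellular protein of the crypt base, had differences of 0.58 ± 0.14 and 0.49 ± 0.13. Of 24 WNT target genes 4 were higher and 2 lower, Sp5 (-1.64 ± 0.37) and Ccnd1, against the same shares of all genes. The higher count was 9 with the replicate block of pairs, 12 with epithelial scaling, 10 on the RPKM values and 7 without AKVPSL GFP- replicate 4. The higher members were Apcdd1 (1.88 ± 0.37), Bambi (1.35 ± 0.23) and Kremen1 (0.78 ± 0.17), inhibitors of WNT or BMP signalling, and Cd44 (0.52 ± 0.14). Apcdd1 stood at 82.5, 63.4, 119.8 and 97.4 CPM in AKVPSL GFP+ and 23.8, 21.4, 32.3 and 49.7 CPM in AKVPSL GFP- cells. Its AKVPL values were 25.1, 22.8, 23.7 and 35.6 CPM in GFP+ and 28.0, 41.9, 27.4 and 40.5 CPM in GFP- cells. Within AKVPSL the sorts did not overlap, and within AKVPL they did. The difference was 1.88 ± 0.37 (edgeR adjusted p = 0.00309) and was called in all 26 other settings.

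Secretory cell genes with higher differences were few and mostly low in AKVPL. Of 9 Paneth cell genes tested, out of 17 listed, 3 had a higher difference (Ang4, Reg4 and Mmp7), against 7.01% of all genes. Nupr1, a stress response gene, had a lower one (-1.08 ± 0.27). The higher count was 5 with the replicate block of pairs and on the RPKM values. Reg4, a lectin of secretory cells, stood at 82.4, 88.6, 79.8 and 109.7 CPM in AKVPSL GFP+ and 10.5, 7.40, 10.4 and 11.9 CPM in AKVPSL GFP- cells. The level in AKVPL was 4.23, 5.16, 5.39 and 2.83 CPM in GFP+ and 3.72, 3.27, 3.09 and 3.56 CPM in GFP- cells, and the difference was 2.78 ± 0.25 (edgeR adjusted p = 8.81e-07). Mmp7, which activates Paneth cell defensins, had sort effects of 1.65 ± 0.12 in AKVPSL and 0.80 ± 0.12 in AKVPL (0.86 ± 0.17). Pigr, the receptor that carries IgA into the lumen, belongs to the list of mucosal defence genes. It averaged 146 ± 44.9 CPM in AKVPSL GFP+ and 19.8 ± 3.42 CPM in AKVPSL GFP- cells, against 170.4 ± 27.8 and 55.4 ± 10.6 CPM in AKVPL GFP+ and GFP- cells (1.27 ± 0.28). Among 20 goblet cell genes 4 were higher (Guca2a, Muc2, Spink4 and Tff3, against 7.01% of all genes) and 1, Muc4, lower (-0.78 ± 0.27, a call that ended in 20 of the 26 other settings), and the higher count ran from 1 to 4 when 1 library was left out. Guca2a, the peptide guanylin, kept its call in all of those (2.30 ± 0.39), while the call of Muc2 (5.00 ± 1.44) ended in 7 of the 26 other settings, with 1.40 without AKVPL GFP- replicate 2. The call of Spink4 ended in 12 and that of Tff3 in 8 of the 26 other settings. Anpep, an aminopeptidase of absorptive cells, had sort effects of 1.44 ± 0.11 in AKVPSL and 0.08 ± 0.10 in AKVPL (1.36 ± 0.15, edgeR adjusted p = 9.11e-06). Of 17 absorptive cell genes tested it was the 1 higher member, and S100g (-3.47 ± 1.10) was the 1 lower member. The shares of all genes were 7.01% and 13.7%, and the list median was -0.26. S100g had 12 and 22 counts over the AKVPSL GFP+ and GFP- libraries.

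Some members of smaller groups of regulators had higher differences, against 7.01% of all genes. In the unfolded protein response list 5 of 24 were higher and none lower: Sel1l (1.07 ± 0.13), Edem1 (0.91 ± 0.14) and Herpud1 (0.80 ± 0.16), which act in degradation of proteins from the endoplasmic reticulum, the transcription factor Xbp1 (0.83 ± 0.13) and the oxidase Ero1b (0.91 ± 0.26). The count was 13 with epithelial scaling and 8 on the RPKM values. Xbp1 stood at 452, 401, 463 and 449 CPM in AKVPSL GFP+ and 238, 217, 233 and 213 CPM in AKVPSL GFP- cells. In AKVPL it had 364, 308, 324 and 376 CPM in GFP+ and 313, 308, 351 and 277 CPM in GFP- cells. Sel1l averaged 369 ± 26.1 CPM in AKVPSL GFP+ and 198 ± 22.4 CPM in AKVPSL GFP- cells, against 88.2 ± 3.93 and 99.4 ± 7.49 CPM in AKVPL GFP+ and GFP- cells. Of 22 immediate early genes 4 were higher, 9 with the replicate block of pairs, 15 with epithelial scaling, 7 without AKVPL GFP+ replicate 3 and 2 without AKVPSL GFP+ replicate 3 or 4. Egr3, a transcription factor induced by growth signals, had a difference of 1.56 ± 0.35. Of 22 Notch pathway genes 3 were higher (2 to 4 when 1 library was left out, 6 with DESeq2, 6 on the RPKM values and 9 with epithelial scaling) and 1 lower, Hes1 (-0.40 ± 0.14), a call that ended under 20 of 26 other settings. The ligand gene Jag1 averaged 92.7 ± 6.23 CPM in AKVPSL GFP+ and 80.3 ± 12.7 CPM in AKVPSL GFP- cells, against 40.8 ± 6.96 and 84.6 ± 20.9 CPM in AKVPL GFP+ and GFP- cells (1.26 ± 0.23).

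Targets of the pathways that SMAD4 serves had called members in both directions, beside 13.7% lower and 7.01% higher of all genes. Of 15 BMP target genes 3 were lower and 2 higher, and of 26 TGF-beta target genes 3 were lower and 4 higher. With epithelial scaling these counts were 1 and 5 for BMP, and 1 and 9 for TGF-beta. The TGF-beta counts were 5 lower and 7 higher with the replicate block of pairs, and the higher count was 2 to 6 when 1 library was left out. Id1, an inhibitor of differentiation factors that BMP signals induce, stood at 6.59, 7.43, 4.43 and 4.64 CPM in AKVPSL GFP+ and 16.6, 17.8, 12.1 and 12.2 CPM in AKVPSL GFP- cells. AKVPL cells held 85.3, 104, 127 and 93.2 CPM in GFP+ and 88.9, 100.4, 101 and 87.8 CPM in GFP- cells, and the difference was -1.45 ± 0.24 (edgeR adjusted p = 0.000524). The related Id4 went the other way, with sort effects of 0.56 ± 0.19 in AKVPSL and -0.55 ± 0.22 in AKVPL (1.11 ± 0.29). Tgfb1, a ligand of the TGF-beta pathway, had a higher difference (0.92 ± 0.23), although GFP+ cells held less of it in both genotypes, with 73.5 ± 2.38 CPM in AKVPSL GFP+ and 127 ± 27.9 CPM in AKVPSL GFP- cells, against 57.1 ± 6.81 and 187 ± 45.7 CPM in AKVPL GFP+ and GFP- cells.

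Large differences came from genes that were low in at least 1 group. Fmod, fibromodulin, a collagen-binding matrix protein, stood at 141, 127, 81.7 and 93.9 CPM in AKVPSL GFP+ and 30.9, 31.2, 11.3 and 17.7 CPM in AKVPSL GFP- cells. The AKVPL libraries held 0.632, 1.02, 1.09 and 2.72 CPM in GFP+ and 19.0, 12.3, 23.8 and 7.12 CPM in GFP- cells. GFP+ cells held more in AKVPSL and less in AKVPL, without overlap of the sorts in either genotype, with a difference of 5.92 ± 0.66 (edgeR adjusted p = 6.59e-05). Twist1, a mesenchymal transcription factor, averaged 8.48 ± 1.71 CPM in AKVPSL GFP+ and 6.36 ± 2.02 CPM in AKVPSL GFP- cells, against 0.632 ± 0.15 and 5.83 ± 1.60 CPM in AKVPL GFP+ and GFP- cells (3.62 ± 0.37, edgeR adjusted p = 4.89e-06). Ptprn2, a protein of secretory granules, had 8.65 ± 2.35 CPM in AKVPSL GFP+ and 1.14 ± 0.52 CPM in AKVPSL GFP- cells, against 0.0992 ± 0.0687 and 0.373 ± 0.111 CPM in AKVPL GFP+ and GFP- cells (4.67 ± 0.60). Dpysl5, a protein of growing axons, had sort effects of 2.31 ± 0.34 in AKVPSL and -1.65 ± 0.24 in AKVPL (3.96 ± 0.41). Fibroblasts express Fmod and Twist1, and the fibroblast sums were higher in GFP- cells of both genotypes. The 22 fibroblast genes had a median difference of 0.62, with 0 called higher and 1 lower. The part of fibroblasts was not tested.

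Among the lower differences, Myl9, a myosin light chain of contractile cells, stood at 0.818, 1.21, 1.07 and 1.93 CPM in AKVPSL GFP+ and 7.08, 6.63, 8.91 and 7.06 CPM in AKVPSL GFP- cells. Its AKVPL levels were 127, 134, 163 and 157 CPM in GFP+ and 141, 123, 159.5 and 139 CPM in GFP- cells. AKVPL libraries of both sorts lay above every AKVPSL library, and the difference was -2.65 ± 0.24 (edgeR adjusted p = 8.14e-07). Matk, a kinase that phosphorylates Src family kinases, averaged 1.59 ± 0.437 CPM in AKVPSL GFP+ and 3.83 ± 2.26 CPM in AKVPSL GFP- cells, against 321 ± 81.7 and 107 ± 7.80 CPM in AKVPL GFP+ and GFP- cells (-2.86 ± 0.44). Bglap3, an osteocalcin-related gene whose reads may be shared with Bglap and Bglap2, had 0.0618 ± 0.0714 and 0.252 ± 0.227 CPM in AKVPSL GFP+ and GFP-, against 14.9 ± 7.65 and 1.98 ± 0.459 CPM in AKVPL GFP+ and GFP- (-4.96 ± 0.89). Strip2, of a phosphatase-associated complex, had opposite sort effects of -1.08 ± 0.26 in AKVPSL and 1.61 ± 0.18 in AKVPL (-2.69 ± 0.31). Ociad2, Serpinb5, a serpin of epithelium, and Aspa, an aspartoacylase, had differences of -1.26 ± 0.13, -1.46 ± 0.16 and -1.51 ± 0.17.

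Of the 22 gamma protocadherin gene models tested, 22 had a higher difference. They overlap in 1 cluster on chromosome 18 and share their constant exons, so their counts were nearly the same and stand for 1 measurement. Pcdhgc3, an adhesion molecule of the cluster, stood at 103, 105, 126 and 114 CPM in AKVPSL GFP+ and 107, 97.7, 95.7 and 101 CPM in AKVPSL GFP- cells. For AKVPL the values were 16.2, 16.1, 19.3 and 21.2 CPM in GFP+ and 67.1, 51.5, 67.2 and 55.1 CPM in GFP- cells. The AKVPL GFP+ libraries were the lowest and the sort effect in AKVPSL was not called (0.16 ± 0.11), and the difference was 1.89 ± 0.16 (edgeR adjusted p = 7.77e-07).

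Leukocyte, mast cell and fibroblast markers were lower in GFP+ cells of both genotypes, and few had a called difference. Of all genes 7.01% were called higher and 13.7% lower. The median differences were -0.58 for leukocyte, 0.78 for mast cell and 0.62 for fibroblast genes, against -0.10 for all genes. In edgeR, 0 and 0 of 23 leukocyte genes had a higher or lower difference (1 at an unadjusted p under 0.05, 0 and 0 with DESeq2 and with limma-voom, and 1 higher on the RPKM values). Of 15 mast cell genes none was called in edgeR (1 at an unadjusted p under 0.05, 0 with DESeq2, 1 higher with the replicate block of pairs, and 10 higher on the RPKM values). Of 15 neutrophil genes none was called in edgeR (2 at an unadjusted p under 0.05, 1 higher with DESeq2, 2 with the replicate block of pairs, and 2 higher on the RPKM values). Within AKVPSL 22 and within AKVPL 21 of the leukocyte genes were lower in GFP+ cells, against 24.6% and 16.5% of all genes. Of 22 fibroblast genes 1, the matrix protein gene Fbln1, had a lower difference, from sort effects of -1.98 ± 0.41 in AKVPSL and 0.01 ± 0.36 in AKVPL; without AKVPSL GFP+ replicate 1, 6 were higher. Of 20 endothelial genes Vwf (1.63 ± 0.36), Esam (1.29 ± 0.29) and Egfl7 (1.22 ± 0.28) were higher. Vwf averaged 97.1 ± 24.2 CPM in AKVPSL GFP+ and 50.1 ± 20.0 CPM in AKVPSL GFP- cells, against 20.6 ± 1.65 and 32.8 ± 8.61 CPM in AKVPL GFP+ and GFP- cells. The Vwf libraries of the sorts overlapped in both genotypes. The summed endothelial list stood at 403 to 479.8 CPM in AKVPSL GFP+, against 393 to 889 CPM in AKVPSL GFP-, 395 to 496 CPM in AKVPL GFP+ and 794 to 1396 CPM in AKVPL GFP- libraries. A p that misses the threshold does not show that the sort effects of these markers were equal.

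**Figure D5:**
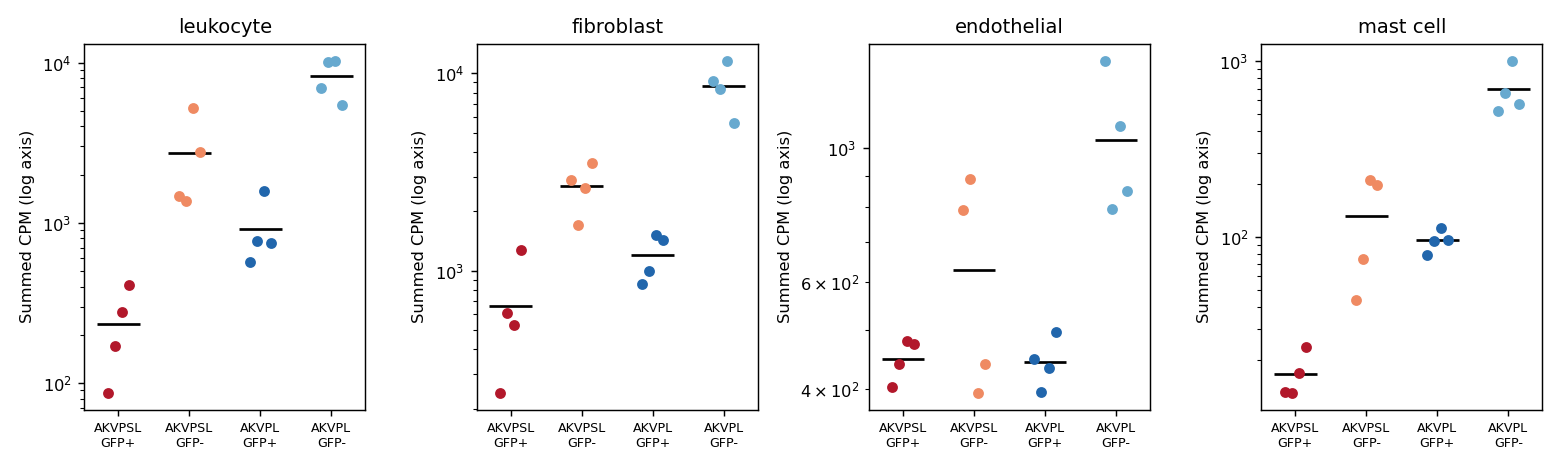
Summed level of leukocyte, fibroblast, endothelial and mast cell marker lists in each library, as CPM on a log axis, with 4 libraries a group as points and the group mean as a bar. Leukocyte, fibroblast and mast cell sums are higher in GFP- than in GFP+ libraries of both genotypes, and highest in AKVPL GFP-.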

How the data were processed

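Flow cytometry sorted the cells and RNeasy Micro columns yielded their RNA, per the labels' protocols. GSNAP and GRCm38 stand in the submitters' processing notes with no version. A gene's deposited count is its uniquely aligned reads, per the file headers. The deposited RPKM values are described in the file headers as corrected with a size factor. Strand setting and gates besides GFP were not given in the sources used here. Of 36528 Gene IDs, 31049 (85.0%) matched the RefSeq gene table of GRCm38.p6. The other 5479 held 1.379% to 1.88% of the counts per library and kept their IDs as names.

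Counts were fitted in edgeR 4.0.16 (R 4.3.3): filterByExpr, TMM scaling (0.936 to 1.09), 1 mean per group over all 16 libraries (12 residual degrees of freedom) and two-sided quasi-likelihood F tests, with Benjamini-Hochberg adjustment over the 18072 genes tested and a threshold of 0.05. The standard error is the log2 value over the square root of F. CPM is the count per 1e6 after TMM scaling, and a pair difference is on log2(CPM + 0.5). The same code was tested on simulated data. Alternatives were size factors and Wald test of DESeq2 1.42.0, limma 3.58.1 (voom, and limma on log2(RPKM + 1)), library totals, epithelial scaling, other filters, replicate blocks and leaving out each library, 26 settings in all. Over genes with at least 10 counts, chi-square per degree of freedom was 9.05 to 73.57 in the 24 replicate pairs, where sampling noise alone gives 1, and each library was counted once.

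Replicate numbers were checked for pairing through the correlation of deviations from group means. It was 0.15 to 0.522 for the 8 pairs of GFP+ and GFP- libraries with the same number and genotype. All were above 0.1, and they were taken as pairs. Passing 0.1 does not establish a pair, because some unpaired libraries, within and across genotypes, also passed it, while others were negative. The labels give no source for the pairing. In AKVPSL, GFP+ replicate 3 correlated more with GFP- replicate 4 (0.531) than with its own number. Likewise GFP+ replicate 4 correlated more with GFP- replicate 3 (0.457).

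The genes, the 37 gene lists and the promoter letters were chosen with earlier results of these data known. Genes were named by rule: Ly6a, Cdkn2a, Kcnh2, Ang4 and Lgr5, and, among called genes whose mean log2 CPM was 1 or more, the 12 with the smallest p, the 8 largest and the 6 largest with opposite sort effects each way. Up to 4 called members of each list, at any mean level, were added. A subset of these is printed, and some are not reported here. Alox5ap, B2m, Cd44, Cdk1, Ero1b, Hpgds, Ifit2, Ifit3, Isg15, Kcna3, Kcnn4, Kcnu1, Ltc4s, Msln, Muc4, Oas1a, Rps27l, Smad4, Smoc2, Sox9, Sp5, Spry4 and Tas1r3 are outside that rule, picked with their values in view. An E2F element was also looked up, as TTTCCCGC or TTTGGCGC. It was found in 10 of 24 replication genes with a window and in 2.98% of all genes with one. Of the 7 replication genes with a lower difference and a window, 2 held it.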

Additional observations from a re-analysis of the deposited data

Results flagged for a closer look

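The sort effect differed between AKVPSL and AKVPL for 3743 genes by a test of the difference itself, and for 466 genes the sort effects passed in both genotypes with opposite signs.

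In most of the genes named here, 436 groups of 4 libraries were examined. A library was flagged when its gap to its nearest neighbour was a larger share of the group's range than Dixon's 95% critical value for 4 values. Chance flags about 1 in 20 groups, and 15 libraries stood apart in this way. AKVPSL GFP- replicate 3 stood high for Tap1 (21.0 CPM, the other libraries of its group 8.83 to 10.5), for Cdkn2b (112, the others 85.6 to 89.4) and for Anxa3 (1067, the others 864 to 897). AKVPSL GFP- replicate 1 was high for Cdc20 (76.3 CPM, the others 56.8 to 58.4) and for Ociad2 (240.5, the others 199 to 206). For Edem1 and Spry4, AKVPSL GFP+ replicate 1 was high, with 138 CPM (the others 121 to 122) and 139 CPM (the others 105 to 109.9).

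In AKVPL GFP+ libraries, replicate 2 was low for Oas3 (36.0 CPM, the others 45.8 to 47.6). Replicate 3 was high for Ccl5 (10.2 CPM, the others 5.66 to 6.43), replicate 1 for Ptprn2 (0.201 CPM, the others 0.0554 to 0.0781) and replicate 4 for Bglap3 (26.3 CPM, the others 9.80 to 12.2). Among AKVPL GFP- libraries, replicate 2 stood apart for the mucin gene Muc2, with 17.6 CPM where the others had 0.354 to 0.508. The same library was high for Krt19 (864 CPM, the others 763 to 777). Replicate 4 was low for Kcnn4 (82.3 CPM, the others 113 to 118) and replicate 1 for Bambi (14.6 CPM, the others 19.4 to 20.2).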

How the results depend on the processing

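Of 110 genes followed through 26 settings, 88 kept direction and call in all of them, and of 2858 values 120 lost a call, 4 gained one and 2 turned sign. Lgr5 turned to 0.16 with epithelial scaling. Tph1, a gene with 2 counts over the AKVPSL GFP+ libraries whose fitted fold depends on the prior count, was called lower in edgeR (-4.01 ± 0.86). It turned to 0.56 on the RPKM values and passed the threshold there in the other direction (limma adjusted p = 0.0157). The paired fit, with each pair as a replicate block, called 1686 genes higher and 3049 lower for the difference. It raised the opposite genes that went up in AKVPSL and down in AKVPL to 212 (137 without the block). No call of these 110 genes changed in it.

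Counts moved with the scaling, the test and the filter. With epithelial scaling 3869 genes were higher and 688 lower for the difference, 615 higher and 6728 lower for the sort in AKVPL, and the opposite genes were 594 (up in AKVPSL) and 42 (down in AKVPSL). With the DESeq2 Wald test the difference was higher for 2059 genes and the sort in AKVPL for 2650, and the opposite genes were 207 and 197. On the RPKM values these were 2440 and 2631, with 181 opposite genes down in AKVPSL. DESeq2 size factors gave 2461 higher genes for the sort in AKVPL and 176 opposite genes down in AKVPSL, library totals 2669 and 193, and no low-count filter 2217 and 129, with 1542 genes lower for the difference. When 1 library was left out, genes higher for the sort in AKVPL ranged from 2562 (without AKVPSL GFP+ replicate 1; 2592 without AKVPSL GFP- replicate 1) to 4431, against 4089, and opposite genes down in AKVPSL from 200 (without AKVPSL GFP- replicate 1) to 327, against 329. Genes called for the difference ranged from 2818 to 4646. The cause of these moves was not tested. Depth limits genes near 0, such as Ang4 with 9 counts over the AKVPL GFP+ libraries.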

Other observations

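Further lists had called members in both directions. Of 25 genes of MAPK output 5 had a higher difference and 2 a lower one (edgeR; median 0.10), and 9 and 0 with epithelial scaling. Of all genes 7.01% were higher and 13.7% lower. Spry4, a feedback inhibitor of receptor tyrosine kinase signals, stood at 139, 109.9, 108 and 105 CPM in AKVPSL GFP+ and 89.1, 63.4, 53.6 and 69.6 CPM in AKVPSL GFP- cells. Its AKVPL levels were lower in every library, with 23.4, 32.5, 32.6 and 18.7 CPM in GFP+ and 26.3, 30.7, 35.3 and 36.8 CPM in GFP- cells. The difference was 1.00 ± 0.25 (edgeR adjusted p = 0.0102). Etv1, an ETS factor, had opposite sort effects of 0.85 ± 0.25 in AKVPSL and -0.84 ± 0.26 in AKVPL (1.70 ± 0.36). Phlda1 was lower (-0.60 ± 0.13), a call that ended with epithelial scaling (-0.26).

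Of 24 p53 target genes 2 were higher and 7 lower, and with epithelial scaling 8 were higher and 0 lower, against 7.01% and 13.7% of all genes in the first case and 21.4% and 3.81% in the second, so the balance of this list turned with the scaling as it did for all genes. The lower count was 4 to 7 when 1 library was left out, with the lowest value without any 1 of AKVPL GFP+ replicates 1 and 4, AKVPL GFP- replicate 4 and AKVPSL GFP+ replicates 3 and 4, and the higher count was 1 without AKVPSL GFP+ replicate 4. Trp53inp1, a p53-induced stress gene, was higher (0.85 ± 0.20) in edgeR and in all 26 other settings. Btg2, an antiproliferative gene, was higher too (0.64 ± 0.19), but fell short of the threshold without AKVPSL GFP+ replicate 3 (0.51) or 4 (0.58). Rps27l (-0.76 ± 0.19) and Perp (-0.53 ± 0.12) were lower, and both calls ended with epithelial scaling (-0.44 and -0.19).

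Among 9 enteroendocrine genes tested, out of 24 listed, 2 were higher and 2 lower, and on the RPKM values 5 were higher. Insm1, a transcription factor of endocrine cells, stood at 43.3, 38.8, 46.1 and 40.2 CPM in AKVPSL GFP+ and 29.4, 29.9, 21.6 and 33.6 CPM in AKVPSL GFP- cells. In AKVPL libraries it had 4.00, 3.12, 5.82 and 3.71 CPM in GFP+ and 6.13, 5.55, 6.67 and 6.52 CPM in GFP- cells. GFP+ cells held more in AKVPSL and less in AKVPL, and the difference was 1.13 ± 0.23 (edgeR adjusted p = 0.00268). Chgb, a granin of secretory granules, was under 1 CPM in all libraries but AKVPL GFP- replicates 1, 2 and 3 (5.49, 3.24, 1.55 and 0.678 CPM in AKVPL GFP-), with a difference of 4.96 ± 0.84. Of 18 gastric genes 0 were higher and 2 lower, among them Vsig1 (-1.02 ± 0.22), a junction protein of the stomach. The lower gastric count was 5 without AKVPL GFP- replicate 2 and 4 without AKVPSL GFP+ replicate 4. Lists of hypoxia and glycolysis, cholesterol synthesis, NF-kappa-B and inflammation, mesenchymal, smooth muscle, absorptive cell and mucosal defence genes had 3, 1, 1, 3, 1, 1 and 2 higher members and 1, 5, 1, 0, 1, 1 and 0 lower ones, of 30, 24, 29, 15, 13, 17 and 12 tested. Of all genes 7.01% were higher and 13.7% lower. The higher counts of hypoxia and glycolysis, mesenchymal, smooth muscle and mucosal defence genes were above that share. So was the lower count of cholesterol synthesis genes. The other counts of these lists were below the shares of all genes, and all are small and given as values. With epithelial scaling 0 cholesterol synthesis genes were lower and 8 hypoxia and glycolysis genes higher. Leaving out 1 library moved the lower cholesterol synthesis count to between 1 (without AKVPSL GFP- replicate 1) and 7, the higher hypoxia and glycolysis count to between 1 (without AKVPL GFP+ replicate 1 or AKVPL GFP- replicate 4) and 4, and the higher mesenchymal count to between 1 (without any 1 of AKVPL GFP+ replicate 4, AKVPL GFP- replicate 1 and AKVPSL GFP+ replicates 3 and 4) and 4.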
